A study of Mus musculus with 10 samples.

Results

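Translation factors are the proteins that bring the ribosome to an mRNA and move it along the reading frame. The genes described here are the mouse initiation factors (eIF) and elongation factors (eEF), taken by gene symbol from the annotation of the array: symbols that begin with Eif1, Eif2b, Eif2s, Eif3, Eif4a, Eif4b, Eif4e, Eif4g, Eif4h, Eif5, Eif6, Eef1a, Eef1b, Eef1d, Eef1g or Eef2, without pseudogenes, Eif4enif1 and Eef2k. This gave 50 genes among 65956 measured transcript clusters, each gene read from the cluster with the highest mean level over all 10 arrays. A transcript cluster is the set of probes that the array summarises for a gene or transcript. The symbols also take in Eif1ad, the 4E-binding proteins and 4 methyltransferases that modify elongation factors. A further 6 clusters carry the symbols of several genes and are given as counts only, and 5 pseudogene clusters were left out. Eif1, Eif2s1 and Eif4g1 were not analysed here, and Eef1g, Eif4a2, Eif4a3 and Eif5 were not among the 50 genes.

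RNA of pooled oocytes freed of follicular cells was measured on 10 Affymetrix Clariom D arrays, 2 WT and 3 Patl2-/- at the germinal vesicle (GV) stage and 2 WT and 3 Patl2-/- at metaphase II (MII). Patl2 encodes an oocyte RNA-binding protein of the Pat1 family, and the comparisons ask how its loss and oocyte maturation change these mRNAs. The knockout was homozygous and lacked exon 7 of Patl2 with a LacZ cassette inserted. It derived from the C57BL/6NTac Patl2 FL/FL (tm1a) line crossed with EIIa-Cre mice, whose Cre acts in early embryos, so the deletion was not limited to oocytes. No source used here says whether the WT females carried Cre or were littermates. All females received 5 units of PMSG. GV oocytes were taken 44 h later from females of 3 to 8 weeks, 20 to 32 oocytes per sample. For MII oocytes, 5 units of hCG followed 48 h after PMSG and collection came 12 h later by the labels (13 h by the methods), with 28 (labels) or 32 (methods) to 46 oocytes per sample. The age of the MII females is not given in the sources used here. Values are log2 expression levels, and since 250 pg of RNA was labelled from each sample and the arrays were normalized to each other, a level is relative to the other transcripts of its array. The study reports less RNA per oocyte at MII than at GV, so a higher level at MII need not mean more mRNA per oocyte. In such pooled RNA, fewer cells of a type and less RNA per cell cannot be told apart. The labels call the arrays of a group biological replicates. The animals behind each pool are not given in the sources used here, and the p-values therefore cover only the spread between these pools.

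Arrays of a group correlated at 0.989 or above over all clusters. Patl2 read 11.70 and 10.92 in WT GV, 7.71, 7.36 and 8.07 in Patl2-/- GV, 8.73 and 8.55 in WT MII, and 6.44, 6.10 and 6.59 in Patl2-/- MII, so that the knockout differed from WT by -3.60 at GV (SE 0.27, adjusted p = 0.0126) and -2.26 at MII (SE 0.27, adjusted p = 0.0208) on the log2 scale (limma). The median of 12 oocyte markers lay between 15.1 and 15.7 on every array. That of 18 measured granulosa and cumulus markers (of 19 listed) lay between 5.20 and 5.59, and that of 9 blood, vessel and stroma markers (of 11) between 4.25 and 4.53, both under the 90th percentile that negative control probes had on each array (6.14 to 6.46), taken here as background. Some granulosa and cumulus markers were above background: 4 to 5 of 18 on the GV arrays of each genotype, 2 to 3 on the WT MII arrays and 4 to 7 on the Patl2-/- MII arrays. Summed on the linear scale the 18 gave 1438 to 3710 in WT GV, 2925 to 3399 in Patl2-/- GV, 1325 to 1339 in WT MII and 1530 to 3197 in Patl2-/- MII. Inha read 11.04 and 7.76 in WT GV, 10.36 to 10.83 in Patl2-/- GV, 6.69 and 5.41 in WT MII, and 6.30, 8.95 and 8.65 in Patl2-/- MII. Patl2-/- MII replicate 2 had the highest Cyp11a1 (9.83), Tnfaip6 (7.97) and Hsd3b1 (7.41) of all arrays. Nr5a2 was at 9.06 to 9.99 throughout, while Amh, Foxl2 and Gja1 were under background on all arrays. Of the blood, vessel and stroma markers, Pecam1 alone was above background (9.58 to 10.32 on all arrays). The 4 hybridisation controls read higher in Patl2-/- than in WT arrays at both stages (11.71 to 11.98 against 11.25 to 11.46 at GV, 11.58 to 11.69 against 11.34 to 11.39 at MII). Their part in the genotype differences below was not tested.

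Initiation starts when eIF2, loaded with GTP and the initiator tRNA, joins the small ribosomal subunit together with eIF1, eIF1A, eIF5 and the large eIF3 complex. The cap of the mRNA is bound by eIF4E, which with the scaffold eIF4G and the helicase eIF4A forms eIF4F, and the 4E-binding proteins compete with eIF4G for eIF4E. eIF2B recharges eIF2 with GTP, eIF5B joins the large subunit, and eIF6 keeps free large subunits from joining too early. In elongation, eEF1A brings the aminoacyl-tRNA, eEF1B recharges eEF1A, and eEF2 moves the ribosome along by a codon. Full-grown oocytes are transcriptionally silent, and during maturation stored mRNAs are translated or degraded.

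Many mRNAs of the translation apparatus start with a C followed by a run of pyrimidines, the 5′ terminal oligopyrimidine (TOP) motif, through which growth signalling controls their translation. The start regions of 3 eIF3 subunit genes that fell between GV and MII, of the 1 that rose (Eif3b), and of the 2 members found with the motif at their start (Eif3f, which also fell, and Eif2s3x) are shown here (RefSeq, GRCm38.p6, 15 bases before the annotated start and 15 from it, coding strand). Capitals mark the base at the annotated start or, where the motif begins there, the pyrimidines that follow from it.
Eif3k: aaaacaaccggcgctGgtgctgaaagcgcc
Eif3m: ttttccggtcggcgtGtttctggatcggag
Eif3l: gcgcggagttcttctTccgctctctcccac
Eif3f: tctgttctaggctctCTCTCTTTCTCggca
Eif3b: ctagcggcgcgcggtGacttctgggagtcg
Eif2s3x: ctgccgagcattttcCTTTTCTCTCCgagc
They lie at chr7:28981874-28981903 (minus strand), chr2:105017013-105017042 (minus), chr15:79075208-79075237 (plus), chr7:108934400-108934429 (plus), chr5:140419290-140419319 (plus) and chrX:94212637-94212666 (minus), each across the 5′ end of its gene.

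Eif3f and Eif2s3x each had a C at the annotated start and 11 pyrimidines counted from it, with further pyrimidines just before it. The annotated starts of Eif3k, Eif3m and Eif3b were a G and that of Eif3l a T. A C at the annotated start followed by at least 4 bases that are C or T was searched on the coding strand. It was found in 2 of the 36 members with a start region in the table (5.56%) and in 3.01% of 27025 genes. With the C allowed up to 5 bases from the annotated start, the shares were 27.8% of members (10 of 36) and 21.2% of genes. Of the genes shown, Eif3b and Eif3l also had the motif with that allowance, and Eif3k and Eif3m did not. Among members lower at MII than at GV and with a start region, 1 of 10 (WT) and 1 of 12 (Patl2-/-) had the motif at the start. Annotated starts can differ from those used in oocytes, and a match is a description of these letters only.

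Over all 10 arrays, 35 of the 50 genes had a mean log2 level of at least 8, as did 9204 of the 65956 clusters. Eef1a2, Eif2s3y, Eif5a2, Eef2kmt, Eef1aknmt and Eif1a lay under this background percentile on every array. Eef1a2 is the eEF1A of muscle and neurons and Eif2s3y the Y-linked copy of the eIF2 gamma subunit. At MII, 10 members in WT and 11 in Patl2-/- were under that percentile on all arrays of the group, against 6 in each genotype at GV. The median of the 50 genes was 10.5 to 10.7 on the GV arrays, 10.14 and 10.30 on the WT MII arrays and 9.83, 10.02 and 10.08 on the Patl2-/- MII arrays, so that all MII arrays lay below all GV arrays. Levels of different genes are not compared, because each gene has its own probes.

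**Figure D1:**
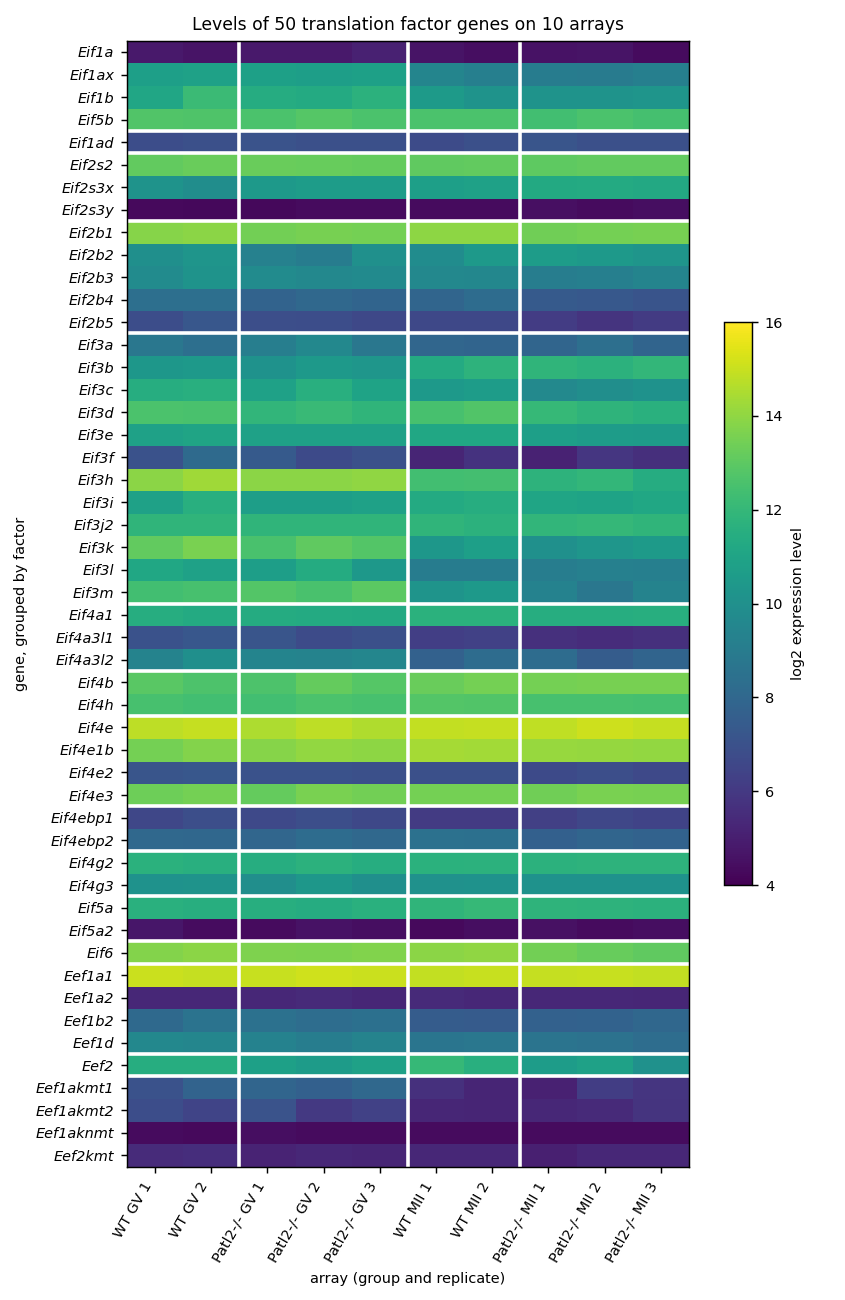
Levels of the 50 translation factor genes (rows, grouped by factor) on the 10 arrays (columns, grouped by genotype and stage), as log2 expression in colour. Eif3k, Eif3m, Eif3h and Eif3l are darker on the 5 MII arrays than on the 5 GV arrays.

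Between GV and MII, 15 of 50 members fell and 4 rose in WT oocytes (limma, Benjamini-Hochberg adjusted p under 0.05 over all clusters, called here). These are 30% and 8% of members, against 5.19% and 1.96% of all clusters. In Patl2-/- oocytes 18 fell and 3 rose, 36% and 6% of members against 7.14% and 3.37% of all clusters. Low clusters are called less often, so the same was counted among clusters with a mean level of at least 8: 28.6% of members fell and 11.4% rose in WT (20.5% and 8.67% of such clusters), and 37.1% fell and 8.57% rose in Patl2-/- (25.4% and 15.2%). The median difference over members was -0.08 in WT and -0.21 in Patl2-/- oocytes, beside 0.02 and -0.01 over all clusters. Both medians turned positive (0.09 and 0.04) when the deposited values were quantile-normalized once more. The granulosa and cumulus markers moved in part with the stage, as the levels of Inha given above show, and their part in these changes was not tested. Leaving out WT GV replicate 2, WT MII replicate 1 or WT MII replicate 2 brought the WT calls from 19 to 9, 8 and 11.

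eIF3, the scaffold of the initiation complex, held the largest falls. Of the 12 measured subunit genes, 6 fell and 1 rose in WT, and 7 fell and 1 rose in Patl2-/- oocytes. Eif3k read 13.12 and 13.60 in WT GV, 12.56, 13.09 and 12.78 in Patl2-/- GV, 10.36 and 10.76 in WT MII, and 10.04, 10.31 and 10.56 in Patl2-/- MII. The MII arrays did not overlap the GV arrays, and the level fell 6.97-fold in WT (log2 difference -2.80, SE 0.25, adjusted p = 0.000438) and 5.67-fold in Patl2-/- (-2.50, SE 0.20, adjusted p = 0.000214). Eif3m, a subunit with a PCI domain, read 12.38 and 12.52 in WT GV, 12.77, 12.55 and 12.99 in Patl2-/- GV, 10.20 and 10.45 in WT MII, and 9.33, 8.74 and 9.35 in Patl2-/- MII. Its MII arrays lay below all GV arrays, and among MII arrays the knockout lay below WT. The fall was 4.35-fold in WT (-2.12, SE 0.22, adjusted p = 0.00103) and 12.3-fold in Patl2-/- oocytes (-3.63, SE 0.18, adjusted p = 2.99e-05).

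Eif3h read 13.90 and 14.29 in WT GV, 13.93, 13.91 and 14.00 in Patl2-/- GV, 12.39 and 12.41 in WT MII, and 11.77, 11.93 and 11.45 in Patl2-/- MII. All MII arrays were lower, with log2 differences of -1.70 in WT (SE 0.17, adjusted p = 0.000769) and -2.23 in Patl2-/- (SE 0.14, adjusted p = 6.13e-05). Eif3l, the partner of Eif3k in the complex, read 11.13 and 10.89, then 10.71, 11.36 and 10.38 at GV, and 9.04 and 9.05, then 9.10, 9.22 and 9.16 at MII (WT, then Patl2-/-). It fell 3.89-fold (adjusted p = 0.00361) and 3.16-fold (adjusted p = 0.00211). Eif3c fell by 0.98 (adjusted p = 0.044) and 1.24 (adjusted p = 0.0047) on the log2 scale. Eif3f read 7.01 and 8.14 in WT GV and 7.39, 6.69 and 6.98 in Patl2-/- GV, but 5.17 to 5.89 on the MII arrays, under the background percentile. The fall of Eif3f was therefore at least 2.43-fold in WT (adjusted p = 0.0195) and at least 1.59-fold in Patl2-/- (adjusted p = 0.0267), with that percentile of each array as its floor.

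The subunits did not move as one. Eif3b, which with Eif3a, Eif3g and Eif3i forms the part of the complex that reaches the mRNA entry side, read 10.37 and 10.49 in WT GV and 10.12, 10.44 and 10.30 in Patl2-/- GV. At MII it read 11.35 and 11.78 in WT and 11.86, 11.70 and 11.95 in Patl2-/-, above every GV array. It rose 2.20-fold in WT (1.14, SE 0.16, adjusted p = 0.00474) and 2.93-fold in Patl2-/- (1.55, SE 0.13, adjusted p = 0.000263). Differences of Eif3d, Eif3e, Eif3i and Eif3j2 lay between -0.20 and 0.28 and passed the test in neither genotype. Eif3j2 has a near-identical copy whose RNA the probes may also read. Eif3a, the largest subunit, fell by 1.12 in Patl2-/- (SE 0.23, adjusted p = 0.0172), and in WT its difference of -0.67 did not pass (adjusted p = 0.253).

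In the textbook grouping of the mammalian complex, the 8 octamer subunits that carry PCI or MPN domains (Eif3a, Eif3c, Eif3e, Eif3f, Eif3h, Eif3k, Eif3l and Eif3m) had a median difference of -1.83 in WT and -1.56 in Patl2-/- oocytes, with 6 and 7 of them called lower. With Eif3f at its bound the medians were -1.49 and -1.45. The other 4 measured subunits (Eif3b, Eif3d, Eif3i and Eif3j2) had medians of 0.12 and 0.17, and 1 was called, higher, in each genotype. The grouping was chosen with these values known, and carries no test. A cluster that only the tables of the study name as Eif3g, listed there for its change in maturation, read 12.59 and 13.32 in WT GV, 12.41, 12.27 and 12.53 in Patl2-/- GV, 9.66 and 9.80 in WT MII, and 8.45, 9.08 and 8.77 in Patl2-/- MII. Its difference between GV and MII was -3.23 in WT and -3.63 in Patl2-/- oocytes, and Eif3g is not one of the 8 octamer subunits. The cluster was chosen for that change and is a description only, outside the 12 subunits counted.

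**Figure D2:**
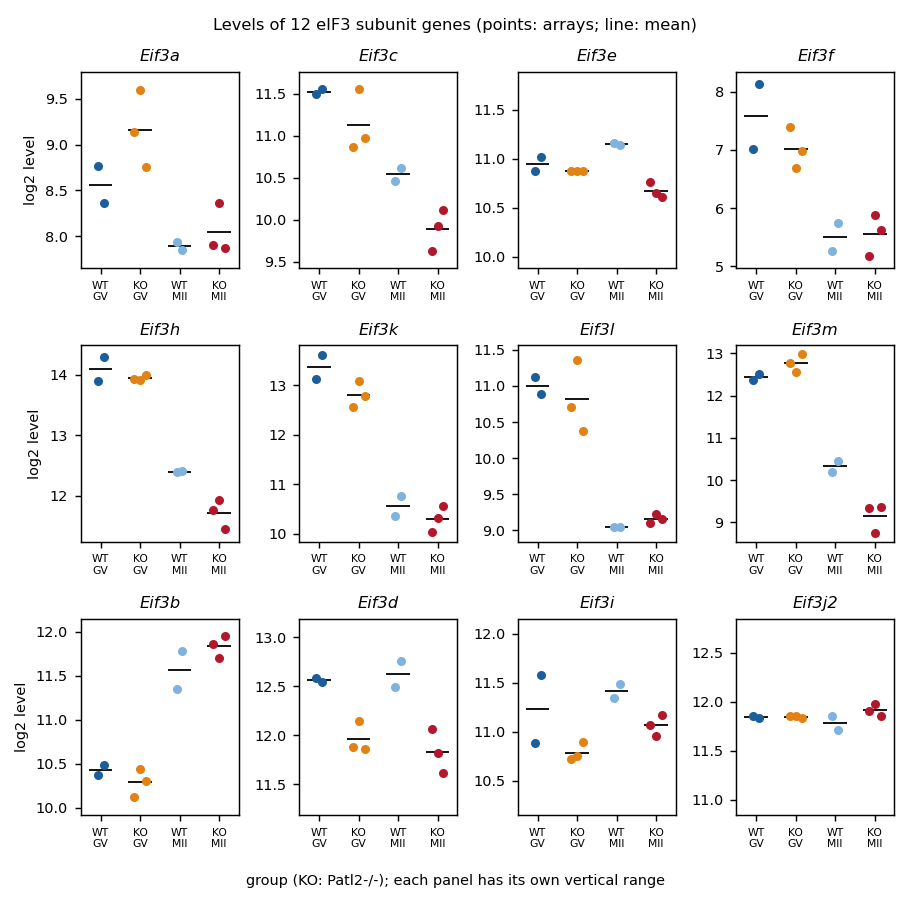
Levels (log2) of the 12 measured eIF3 subunit genes in the 4 groups, each point an array and each line a group mean, with a vertical range per panel. Eif3k, Eif3m, Eif3h and Eif3l drop from GV to MII in both genotypes, and Eif3b is above 11 at MII only. At MII the genotypes do not overlap for Eif3c, Eif3d, Eif3e, Eif3h, Eif3i and Eif3m (lower in Patl2-/-) and Eif3l (higher).

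Of the factors that scan for the start codon, Eif1ax, the X-linked eIF1A, read 10.75 and 10.85 in WT GV, 10.80, 10.71 and 10.83 in Patl2-/- GV, 9.44 and 9.19 in WT MII, and 9.05, 8.98 and 9.20 in Patl2-/- MII. GV and MII arrays did not overlap. It fell 2.81-fold in WT (adjusted p = 0.000172) and 3.25-fold in Patl2-/- (adjusted p = 3.39e-05). Eif1b, a close copy of Eif1 whose RNA its probes may also read, fell by 1.31 (SE 0.31, adjusted p = 0.0421) and 1.29 (SE 0.25, adjusted p = 0.0147). Eif5b, the joining GTPase, differed by no more than 0.22 in either genotype and was not called.

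Of the helicase genes, Eif4a1 differed by 0.25 in WT (adjusted p = 0.102) and 0.14 in Patl2-/- (adjusted p = 0.213). Eif4a3l1 and Eif4a3l2, mouse copies of the exon junction helicase Eif4a3, fell. Eif4a3l2 went down 3.28-fold in WT (adjusted p = 0.00889) and 2.94-fold in Patl2-/- (adjusted p = 0.00362). Eif4a3l1 went down 1.79-fold in WT (adjusted p = 0.0101) and, with all Patl2-/- MII arrays under the background percentile, at least 1.51-fold in Patl2-/- oocytes (adjusted p = 0.000279). Both may share probes with each other and with Eif4a3. Eif4b, a cofactor of the helicase, rose by 0.63 in Patl2-/- (SE 0.14, adjusted p = 0.0242), and its WT difference was 0.57 (SE 0.17, adjusted p = 0.1).

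Among elongation factors, Eef1a1 read 14.94 to 15.05 in WT GV, 14.97 to 15.11 in Patl2-/- GV, 14.89 and 14.97 in WT MII and 14.91 to 14.97 in Patl2-/- MII. The 4 groups overlapped, and no comparison of Eef1a1 was called. Eef1d and Eef1b2, subunits of the exchange factor of eEF1A, fell in both genotypes. Eef1d fell by 0.83 (adjusted p = 0.00978) and 0.78 (adjusted p = 0.00332), and Eef1b2 by 0.83 (adjusted p = 0.0149) and 0.58 (adjusted p = 0.0213) in WT and Patl2-/- oocytes. Eef1akmt1, a lysine methyltransferase of eEF1A, was under the background percentile on all MII arrays and fell at least 2.16-fold in WT (adjusted p = 0.0181) and at least 2.91-fold in Patl2-/- (adjusted p = 0.00286). Eef1akmt2, of the same function, fell at least 1.28-fold in WT (adjusted p = 0.0372), and it was not called in Patl2-/- (adjusted p = 0.063), where all MII arrays were under background and no difference is given. Eef2 overlapped between the stages in Patl2-/- oocytes and was called in neither genotype.

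The other called rises, like that of Eif4b, were smaller than those of Eif3b. All are relative to the other transcripts of the array, and amounts per oocyte were not measured here. Eif2s3x, the X-linked gamma subunit of eIF2, rose by 0.80 in WT (SE 0.11, adjusted p = 0.0037) and 0.68 in Patl2-/- (SE 0.09, adjusted p = 0.00198). Eif4e1b, the oocyte form of the cap-binding protein, rose by 0.71 in WT (SE 0.11, adjusted p = 0.00859), and in Patl2-/- its difference was 0.14 (SE 0.09, adjusted p = 0.448). Its difference between the genotypes in this change, -0.57 (SE 0.15), did not pass (adjusted p = 0.589). Eif5a, which helps ribosomes through stalling sequences, rose by 0.39 in WT (SE 0.09, adjusted p = 0.0384), and in Patl2-/- its difference was 0.22 (adjusted p = 0.114). Eif4e, the general cap-binding protein, was called in neither genotype, with differences of 0.06 in WT (adjusted p = 0.889) and 0.34 in Patl2-/- (adjusted p = 0.0665).

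Of the members called lower, 13 were called in both genotypes, out of 15 in WT and 18 in Patl2-/-. For higher calls the number was 2, out of 4 and 3. Eif2b3, Eif2b4, Eif2b5, Eif3a and Eif6 passed in Patl2-/- oocytes and not in WT. Whether a gene changed by a different amount in the genotypes was tested as an interaction, in which 0 members and 0 clusters (0% higher, 0% lower) were called by limma. At an unadjusted p under 0.05, 9 members passed, 8 of them more negative in the knockout. Of all clusters 5.99% passed, 3.6% more negative and 2.39% more positive. Eif3m had the largest such difference (-1.51, SE 0.29, adjusted p = 0.49), followed by Eif2b2 (0.99, SE 0.43, adjusted p = 0.831) and Eif4ebp2 (-0.73, SE 0.14, adjusted p = 0.47). Calls of Eif3k, Eif3m, Eif3h, Eif3l, Eif1ax, Eif3b and Eif2s3x in maturation held in both genotypes without any single array. Eif3f lost its call without any of 3 arrays in WT (WT GV replicate 2 and both WT MII arrays, adjusted p up to 0.128) and any of 4 in Patl2-/- (replicates 1 and 3 of each stage, up to 0.0948). Eif1b (9 arrays), Eef1akmt2 (8), Eif3c (7) and Eif5a (7) lost theirs in WT without most of the arrays, one at a time, with adjusted p up to 0.181, 0.169, 0.209 and 0.174. Eif4e1b lost its WT call without WT MII replicate 1 (adjusted p = 0.0611). In Patl2-/- oocytes, Eif3a (3 arrays, adjusted p up to 0.0675), Eif1b (3, up to 0.0545), Eif4b (5, up to 0.0771) and Eif6 (5, up to 0.0866) lost theirs without an array of either Patl2-/- group. Without WT GV replicate 2 or WT MII replicate 1, Eef1akmt1, Eif4a3l1 and Eif4a3l2 were not called in WT (Eef1akmt1 nor without WT MII replicate 2).

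**Figure D3:**
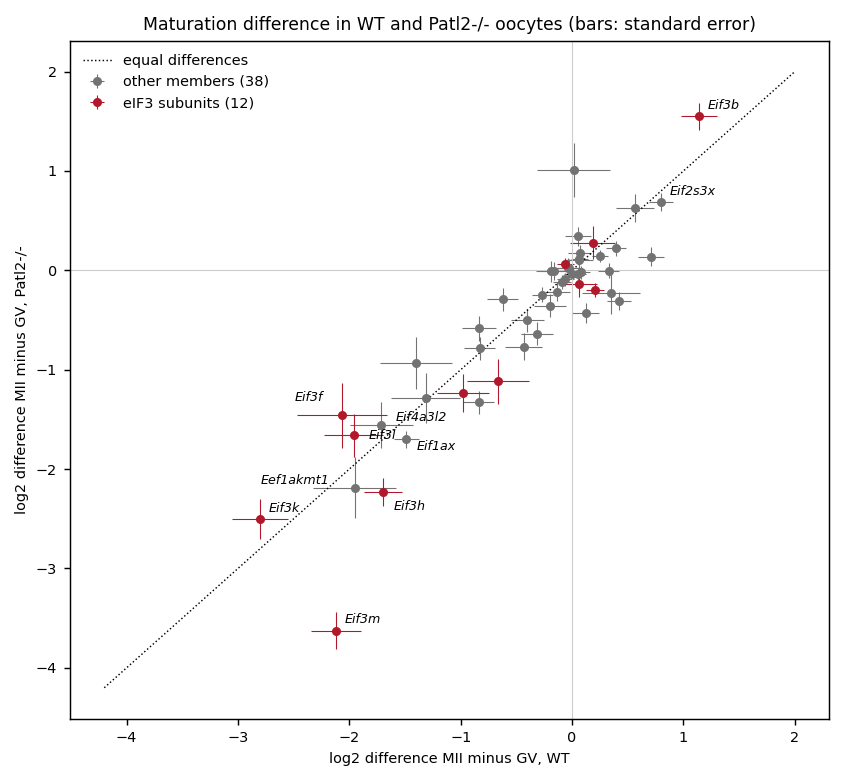
Difference between MII and GV (log2) in WT (horizontal axis) and Patl2-/- oocytes (vertical axis) for the 50 genes, with eIF3 subunits in red and bars of 1 standard error. The dotted line marks equal differences, Eif3m lies farthest below it at -2.12 and -3.63, and Eif3b is the highest point at 1.14 and 1.55.

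Between the genotypes the differences were smaller. At GV, 0 of 50 members were called by limma, where 0.0303% of all clusters were higher and 0.091% lower in Patl2-/- oocytes. At an unadjusted p under 0.05 there were 12 members, 3 higher and 9 lower, against 9.23% of all clusters (4.52% higher, 4.71% lower). The ANOVA of the methods, at an unadjusted p under 0.05 with at least a 2-fold difference, called 0 as well. The median difference over members was -0.07, beside -0.05 over clusters with a mean level of at least 8 and 0.02 over all clusters. Differences ranged from -0.73 to 0.60, with 32 of 50 below 0. The 4 largest were those of Eef2 (-0.73, SE 0.24, adjusted p = 0.351), Eif2b2 (-0.69, SE 0.30, adjusted p = 0.545), Eif3d (-0.60, SE 0.15, adjusted p = 0.213) and Eif3a (0.60, SE 0.25, adjusted p = 0.527).

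At MII, 6 of 50 members (12%) were lower in Patl2-/- oocytes and 0 higher, against 0.462% of all clusters lower and 0.367% higher. Among members with a mean level of at least 8 the share lower was 14.3%, against 1.93% of such clusters. The 6 were 2 eIF2B subunits, 2 eIF3 subunits, a 4E-binding protein and eIF6. The median difference over members was -0.10, beside -0.03 over clusters with a mean level of at least 8 and -0.02 over all clusters. Differences ranged from -1.30 to 0.47 over the 50 genes, with 30 below 0. All 6 lay near the threshold (adjusted p from 0.0305 to 0.0499), and the count was 4 without Patl2-/- GV replicate 2 and 0 to 2 without any other single array. The summed granulosa and cumulus markers were higher in Patl2-/- than in WT MII arrays, by the values given above, and their part was not tested. With the replicate number as a block the count was 0, and with only clusters of a mean level of at least 6 tested it was 10.

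eIF2B, the exchange factor of eIF2 and the target of the integrated stress response, had 2 of its 5 subunits called at MII. Eif2b1, the alpha subunit, read 13.83 and 13.91 in WT GV, 13.43, 13.56 and 13.48 in Patl2-/- GV, 13.96 and 13.94 in WT MII, and 13.39, 13.48 and 13.54 in Patl2-/- MII. The genotypes did not overlap at either stage. The difference was -0.38 at GV (SE 0.07, adjusted p = 0.125) and -0.48 at MII (SE 0.07, adjusted p = 0.0364). Eif2b4, the delta subunit, read 8.40 and 8.37 in WT GV, 7.80, 8.06 and 7.88 in Patl2-/- GV, 7.90 and 8.24 in WT MII, and 7.42, 7.29 and 7.12 in Patl2-/- MII. Again the knockout lay lower throughout each stage, by 0.47 at GV (SE 0.13, adjusted p = 0.267) and 0.79 at MII (SE 0.13, adjusted p = 0.0437). Eif2b3, the gamma subunit, had differences of -0.25 at GV and -0.36 at MII that were not called. The catalytic subunit Eif2b5 was called at neither stage. Its GV difference was -0.26, and at MII it was under background on all 3 Patl2-/- arrays, so that no difference is given. Eif2b2, the beta subunit, read 9.96 and 10.28 in WT and 9.25, 9.03 and 10.01 in Patl2-/- at GV, and 9.82 and 10.44 in WT and 10.63, 10.45 and 10.24 in Patl2-/- at MII. Its groups overlapped at both stages, and its MII difference of 0.30 (SE 0.30) did not pass (adjusted p = 0.776).

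Eif3m, with the levels given above, was 2.27-fold lower in Patl2-/- MII oocytes (-1.18, SE 0.20, adjusted p = 0.0499), while at GV its difference was 0.32 (SE 0.20, adjusted p = 0.731). Eif3e, another subunit of the octamer, read 10.87 and 11.02 in WT and 10.87 on all 3 Patl2-/- arrays at GV, and 11.17 and 11.14 in WT and 10.76, 10.65 and 10.61 in Patl2-/- at MII. WT GV replicate 1 and the 3 Patl2-/- GV arrays held the same value, 10.8713, so that the Patl2-/- GV group had an SD of 0. The SE of Eif3e pools the spread of all groups, this one included. Its difference at MII was -0.48 (SE 0.07, adjusted p = 0.0366). Eif6 read 13.76 and 13.92 in WT GV, 13.69, 13.66 and 13.71 in Patl2-/- GV, 13.92 and 14.00 in WT MII, and 13.46, 13.23 and 13.09 in Patl2-/- MII. The MII arrays of the genotypes did not overlap, with a difference of -0.70 (SE 0.11, adjusted p = 0.0378).

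Eif4ebp2, a translational repressor that binds eIF4E, read 8.07 and 8.003 in WT GV, 7.97, 8.24 and 8.07 in Patl2-/- GV, 8.50 and 8.43 in WT MII, and 7.69, 7.89 and 7.76 in Patl2-/- MII. The genotypes overlapped at GV (0.05, SE 0.10) and not at MII, where the difference was -0.68 (SE 0.10, adjusted p = 0.0305). Its paralogue Eif4ebp1 was not called at MII (adjusted p = 0.318), where both WT arrays were under background and no difference is given. The cap-binding genes themselves were not called between genotypes. Eif4e1b read 13.49 and 13.79 in WT GV, 13.84, 14.07 and 13.95 in Patl2-/- GV, 14.38 and 14.32 in WT MII, and 14.14, 14.08 and 14.05 in Patl2-/- MII, so that the knockout was above WT at GV (0.31, adjusted p = 0.383) and below it at MII (-0.26, adjusted p = 0.36). Eif4e differed by -0.24 at GV and 0.05 at MII, and Eif4a1 by -0.06 and -0.17.

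**Figure D4:**
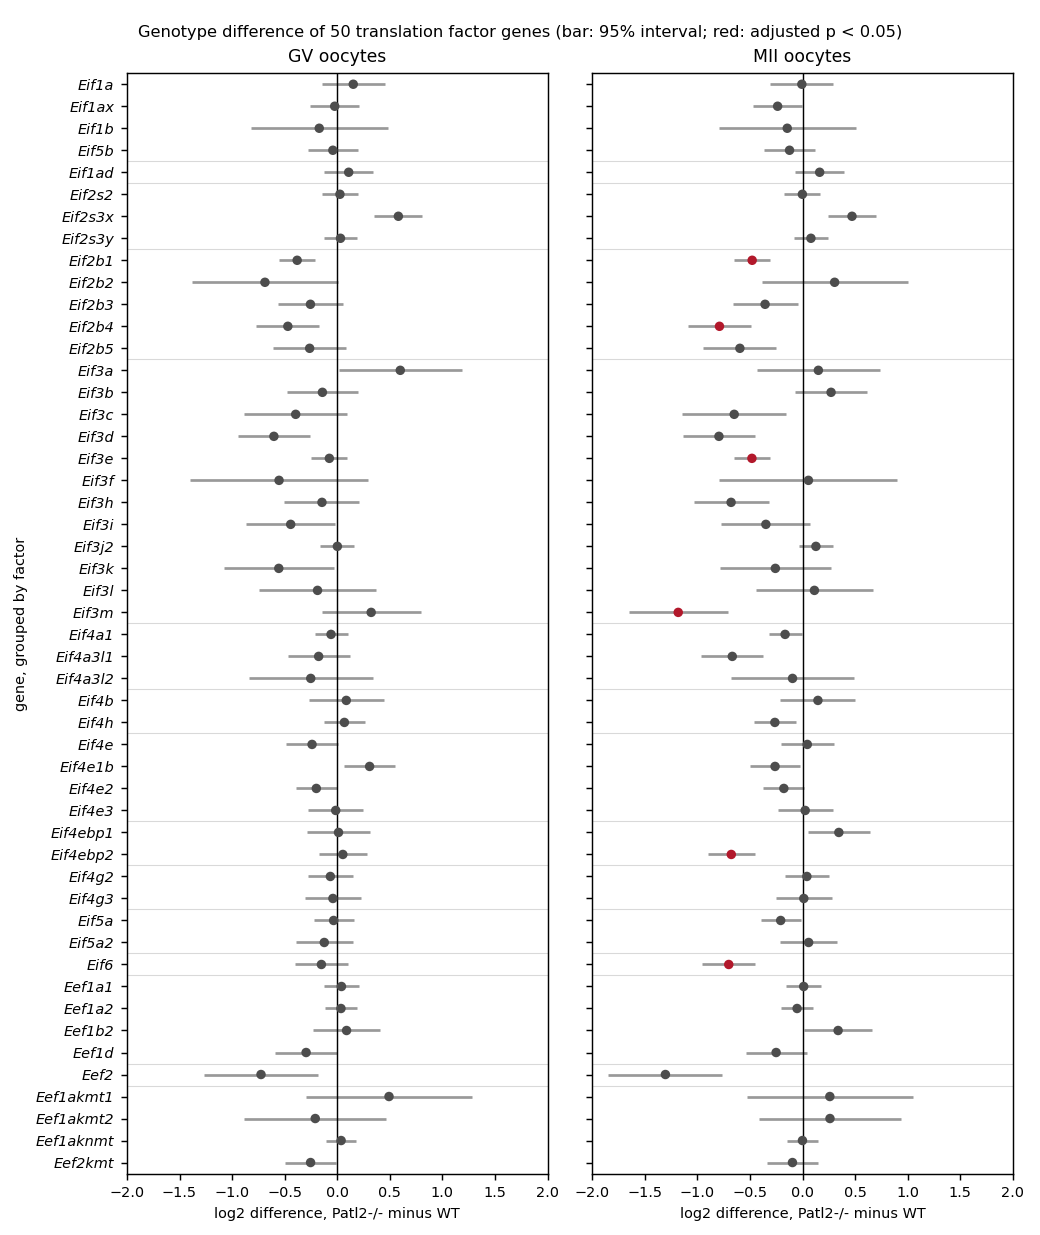
Difference between Patl2-/- and WT oocytes (log2, points) with its 95% interval (bars) for the 50 genes, at GV (left) and MII (right), in red where called. No gene is red at GV, and at MII the 6 red genes Eif2b1, Eif2b4, Eif3e, Eif3m, Eif4ebp2 and Eif6 all lie left of 0.

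Averaged over both stages, 1 member was higher and 6 lower in the knockout, against 0.776% and 1.11% of all clusters. Among members with a mean level of at least 8 the shares were 2.86% and 14.3%, against 3.67% and 4.69% of such clusters. Eef2, the translocase of elongation, read 11.47 and 11.48 in WT GV, 10.82, 10.59 and 10.85 in Patl2-/- GV, 12.06 and 11.59 in WT MII, and 10.63, 10.87 and 10.05 in Patl2-/- MII. No knockout array reached a WT array, and the average difference was -1.01 (2.02-fold, SE 0.17, adjusted p = 0.0273). At MII alone it was -1.30 (SE 0.24, adjusted p = 0.0561). Eif3d, the eIF3 subunit with cap-binding activity of its own, read 12.58 and 12.54 in WT GV, 11.88, 12.14 and 11.86 in Patl2-/- GV, 12.49 and 12.76 in WT MII, and 12.06, 11.81 and 11.61 in Patl2-/- MII. The knockout lay below WT at both stages, by 0.70 on average (SE 0.11, adjusted p = 0.0211).

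Eif2s3x was the member called higher. It read 10.16 and 9.87 in WT GV, 10.50, 10.63 and 10.65 in Patl2-/- GV, 10.76 and 10.86 in WT MII, and 11.29, 11.32 and 11.23 in Patl2-/- MII. Every Patl2-/- array exceeded the WT arrays of its stage, with an average difference of 0.53 (SE 0.07, adjusted p = 0.0152). Eif2b1 (-0.43, SE 0.05, adjusted p = 0.0113), Eif2b4 (-0.63, SE 0.09, adjusted p = 0.0194), Eif6 (-0.43, SE 0.08, adjusted p = 0.0386) and Eif3e (-0.28, SE 0.05, adjusted p = 0.0443) were also called in the average. The call of Eif2b1 held without any single array (adjusted p 0.0159 to 0.0456), and that of Eif2s3x without any but WT MII replicate 1 (adjusted p = 0.0571). Eef2 and Eif3d lost theirs without 8 and 7 of the 10 arrays, one at a time, with adjusted p up to 0.0991 and 0.0753. Eif6 and Eif3e each lost theirs without 9 of the arrays (adjusted p up to 0.12 and 0.125), the exceptions being Patl2-/- MII replicate 1 and WT GV replicate 1, and Eif2b4 without WT GV replicate 1, WT GV replicate 2 or WT MII replicate 2 (up to 0.0639). All 7 calls were lost with the replicate number as a block, which left 0. Leaving out any single array other than Patl2-/- GV replicate 2 and Patl2-/- MII replicates 1 and 3, which gave 5 or 6, left 2 to 4 calls. The 6 clusters annotated to several genes were not called in any genotype comparison, and 2 of them fell in maturation of Patl2-/- oocytes.

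**Figure D5:**
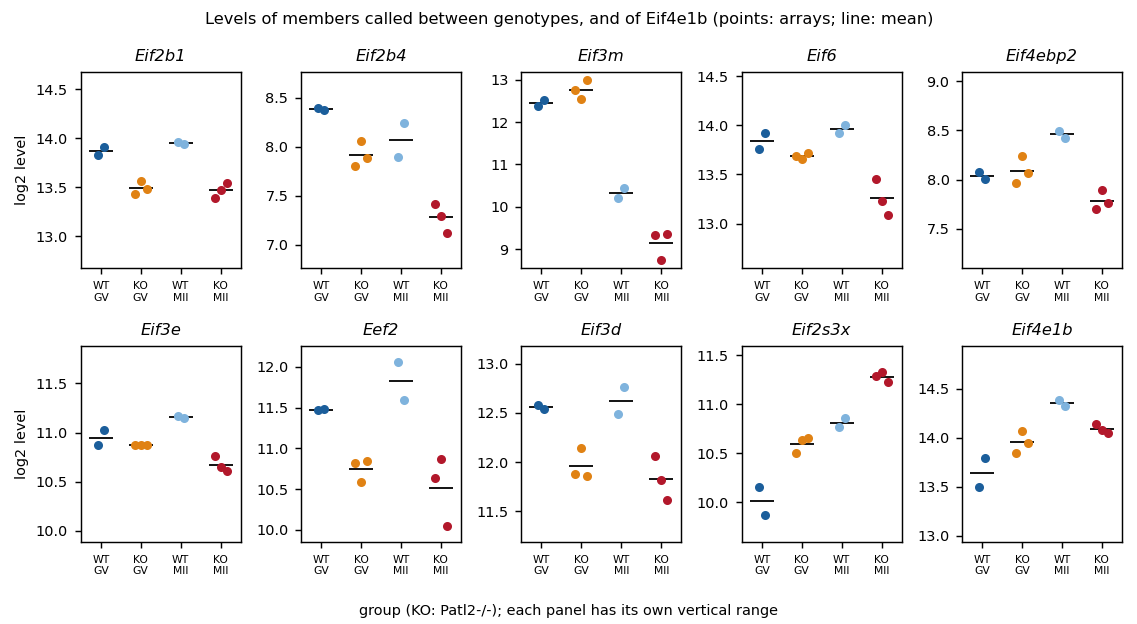
Levels (log2) of the 9 members called between genotypes at MII or on average, and of Eif4e1b, in the 4 groups, each point an array and each line a group mean, with a vertical range per panel. Eef2, Eif3d, Eif2b1 and Eif2b4 lie lower and Eif2s3x higher in Patl2-/- arrays of both stages. Eif3m, Eif6, Eif4ebp2 and Eif3e lie lower in Patl2-/- arrays at MII. At GV the genotypes also do not overlap for Eif3m (higher in Patl2-/-) and Eif6 (lower).

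Regulators and partners of translation outside these symbols were described from a list of 52 genes, of which 47 were measured. Between genotypes 1 was lower at GV and 1 at MII (0.091% and 0.462% of all clusters), and on average 1 was higher and 3 lower (0.776% and 1.11% of all clusters). Among clusters with a mean level of at least 8, 0.261% were lower at GV and 1.93% at MII. On average 3.67% of these clusters were higher and 4.69% lower. Eef1e1, a scaffold of the multi-tRNA synthetase complex and no elongation factor in its function, read 13.21 and 13.57 in WT GV, 12.27, 12.14 and 12.34 in Patl2-/- GV, 13.33 and 13.16 in WT MII, and 11.92, 11.80 and 11.52 in Patl2-/- MII. Knockout and WT arrays did not overlap, with differences of -1.14 at GV (SE 0.15, adjusted p = 0.0499), -1.50 at MII (SE 0.15, adjusted p = 0.0122) and -1.32 on average (SE 0.11, adjusted p = 0.00295). The average held without any single array. The GV call was lost without any but Patl2-/- MII replicate 3 (adjusted p up to 0.154), and the MII call without WT MII replicate 1 (adjusted p = 0.0969). Ppp1r15a, the stress-induced subunit that directs a phosphatase to eIF2 alpha, was lower on average by 1.00 (SE 0.14, adjusted p = 0.0174), a call lost without WT MII replicate 2 (adjusted p = 0.0638). Eif2ak4, the eIF2 alpha kinase GCN2, was lower by 0.42 (SE 0.07, adjusted p = 0.0364), a call lost without 8 of the 10 arrays one at a time (adjusted p up to 0.105). Eif2a, a factor implicated in initiation without eIF2, was higher by 0.46 (SE 0.06, adjusted p = 0.0114), also without any single array.

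In maturation, 6 of the 47 regulators rose and 6 fell in WT (1.96% and 5.19% of all clusters), and 8 rose and 7 fell in Patl2-/- oocytes (3.37% and 7.14%). Among clusters with a mean level of at least 8, 8.67% rose and 20.5% fell in WT, and 15.2% and 25.4% in Patl2-/- oocytes. The regulators were not split by level. Pabpc1, the poly(A)-binding protein that joins the tail to eIF4G, fell by 1.97 (SE 0.28, adjusted p = 0.00496) and 1.59 (SE 0.23, adjusted p = 0.00353). Rps6kb2, an S6 kinase, rose by 0.94 (SE 0.15, adjusted p = 0.0089) and 1.38 (SE 0.13, adjusted p = 0.000358). Cpeb1, which controls cytoplasmic polyadenylation in oocytes, fell by 0.77 (adjusted p = 0.0398) and 0.95 (adjusted p = 0.00437), and the release factor gene Gspt2 by 0.63 (adjusted p = 0.0168) and 0.64 (adjusted p = 0.00429). The eIF4E kinase gene Mknk1 rose by 0.92 in WT (adjusted p = 0.0409) and Mknk2 by 0.91 in Patl2-/- (adjusted p = 0.0147), and Ybx2, an RNA storage protein of germ cells, by 0.79 in Patl2-/- (adjusted p = 0.013). Pabpc1 kept its calls without any single array. In WT, Rps6kb2 lost its call without WT GV replicate 2 (adjusted p = 0.0567), and Cpeb1 (7 arrays, up to 0.201), Mknk1 (7, up to 0.188) and Gspt2 (3, up to 0.0784) lost theirs without some arrays, as did Mknk2 (3, up to 0.0583) and Ybx2 (2, up to 0.0517) in Patl2-/-. Mcts1 was called lower in both genotypes, and Dohh in Patl2-/- (adjusted p = 0.0355), at levels under the background percentile, for which no fold is given.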

How the data were processed

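The authors labelled the RNA with the Affymetrix WT pico kit and ran RMA in Expression Console from Affymetrix, its version not given in the sources used here. RMA corrects the background, sets all arrays to the same quantiles and sums up the probes of a cluster, and the deposited values are on the log2 scale, so no raw intensity or depth was used, and the number of arrays limits the precision. Groups came from the labels alone. Control probes (6732) were left out. Of the 65956 tested clusters, 30638 carry 1 gene symbol in the platform annotation, 2176 several and 33142 none, and a gene was named only from a cluster with 1 symbol.

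The model was limma 3.58.1 in R 4.3.3 (lmFit with 1 mean per group, contrasts, eBayes) on all 10 arrays, with 6 residual and 2.02 prior degrees of freedom, two-sided tests, adjusted by Benjamini-Hochberg over every tested cluster. The methods name a two-group ANOVA, which was run as an alternative. The fit was tested on simulated data with known changes. A group whose arrays all lay under background, the 90th percentile of 5222 negative control probes, was given a bound, with the higher of that percentile and the level on each array as its floor. Robust estimation used statmod 1.5.0, and figures matplotlib 3.10.9. Start regions came from RefSeq by gene symbol (36 of 50 matched).

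Named genes were Patl2, reference members of each factor, members called between genotypes, the 12 largest called changes per direction in maturation, the 4 largest differences between genotypes per stage, and called regulators. Other members and Eif3g were named to complete a complex. The members and lists were chosen with earlier results of these data known. The alternatives tried were a replicate block, 3 other normalizations, filters on low levels and on annotation, other variance estimates and array weights, a fit to the compared groups alone, the methods' ANOVA, averaging all clusters of a gene, leaving out each array, and, chosen after seeing the data, adding the clusters with several genes.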

Additional observations from a re-analysis of the deposited data

How the results depend on the processing

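Counts of called members depended on the processing. At MII 6 members were called between genotypes, and the counts under other settings can include members other than these 6. The count was 0 with the replicate number as a block, with trend and robust variance estimation and with the compared groups fitted alone. By the methods' ANOVA it was 0 after adjustment, and 2 at an unadjusted p under 0.05 with at least a 2-fold difference. It was 3 after quantile normalization once more and 3 with each array centred on its median, 10 with only clusters of a mean level of at least 6 and 10 (1 higher, 9 lower) with only clusters of 1 gene, and 0 to 4 when an array was left out. The 7 calls of the average over both stages became 0 with the replicate block and 2 to 6 without an array. For maturation of WT oocytes, 19 members were called. With the compared groups fitted alone the count was 2, by the methods' ANOVA 9 (unadjusted, with the fold) and 0 (adjusted), and 8 to 20 without an array. The 21 calls in Patl2-/- oocytes became 8 by the adjusted ANOVA. Fewer samples enter the fits to the compared groups, and the cause of the other changes was not tested.

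Quantile normalization once more turned the median difference of the members to 0.087 in WT and 0.044 in Patl2-/- maturation. Under it Eif3e (0.29, adjusted p = 0.029) and Eif2b1 (0.33, adjusted p = 0.0282) were called higher at MII in Patl2-/- oocytes, against differences of -0.20 and -0.02 that were not called. No scaling moved the median of all clusters by more than 0.1. Whether the replicate numbers pair the samples was left undecided. Deviations of same-numbered arrays correlated at -0.13 to 0.25 (median 0.05), with 4 of 13 pairs over 0.1. Those of arrays with different numbers correlated at -0.25 to 0.13 (median -0.03), with 3 of 24 pairs over 0.1. The deviations of the WT arrays of a group mirror each other, so the pairs are not independent and cannot settle this. The block left 16 and 19 called members in WT and Patl2-/- maturation. A log2 level under the negative control percentile (6.14 to 6.46) gives a compressed difference.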
